A study of Mus musculus with 2 samples.

Results

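Pericytes and the other mural cells of the lung were examined in single-cell RNA sequencing of lungs from tumor-bearing mice. Members were selected on measured UMIs, and carried at least 3 UMIs of Cox4i2, Higd1b and Pdgfrb together, fewer than 3 UMIs of the endothelial genes Cdh5 and Cldn5, and no UMI of Csf1r (macrophages) or Cd79a (B cells). A UMI (unique molecular identifier) counts 1 captured transcript molecule. Members also had 500 to 5000 detected genes, under 7.5% mitochondrial UMIs and under 5% of UMIs from the neutrophil genes S100a8 and S100a9. This rule found 54 cells of 16995, with 12 among 8662 cells of the saline library and 42 among 8333 cells of the nanoparticle (NP) library.

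Female BALB/cJ mice aged 12 weeks received 100000 cells of 4T1, a mouse mammary carcinoma line that grows in the mammary fat pad and spreads to the lung. Intravenous saline, or cargo-free nanoparticles of the polymer PLG, was given every 3 days from day 1 after inoculation, and lungs were taken on day 14. The line carried luc2 and tdTomato reporters, and both groups bore tumors, so no tumor-free lung was compared. Each group was 1 library from pooled lungs (4 mice by the labels, while the methods of the study differ), so no test between groups was possible.

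Pericytes wrap the endothelial tube of capillaries inside a shared basement membrane. They are held there by PDGF-B from the endothelium acting on Pdgfrb, and by Notch3 signaling. Smooth muscle cells, the other mural cells, ring larger vessels and contract through Acta2 and Myh11. In the lung, pericytes are known for Cox4i2 (an alternative subunit of cytochrome c oxidase), Higd1b (a hypoxia-inducible domain protein), Gucy1a1 and Gucy1b1 (the nitric oxide receptor, soluble guanylate cyclase) and Postn (periostin, a matrix protein).

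The saline library held 91168129 UMIs and the NP library 90081747. Saline members held 51813 UMIs and NP members 167546. Their median was 3744 UMIs and 1791.5 genes per cell in the saline library, and 3805 UMIs and 1838 genes in the NP library. Of the barcodes kept, 21 occurred in both libraries, and none of these was a member. All intervals are exact 95% intervals that cover counting error only, and they hold neither the spread between mice nor that between libraries.

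Members carried the genes that lung pericytes are known for, so the label held for most of them. The 3 rule genes, and everything measured in the same cells, chose or follow that choice, so the marker values are a description. Against all other cells of the saline library, the 20 genes with the highest ratio of CPM (the UMIs of a gene over all UMIs of the cells summed, times 1e6) included Vtn (vitronectin), Postn, Fam162b, Kcnk3 (a potassium channel), Notch3, Gucy1b1, Gucy1a1, Ndufa4l2 and Art3. Postn stood at 1988 CPM in saline members against 1.17 CPM in the other saline cells, and at 2787 against 6.81 CPM in the NP library. Gucy1a1 stood at 2528 against 3.31 CPM in the saline library, and at 4405 against 12.1 CPM in the NP library. Neither gene was in the rule, although both were among the 5 markers given for these cells.

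Free RNA in the suspension gives UMIs in any droplet, so cells that should lack a gene give its background. Gucy1a1 had a UMI in 9 of 12 saline members (75%) and in 38 of 42 NP members (90.5%). In B cells, which should lack it, the share was 0.645% (saline) and 0.661% (NP), at median depths of 4344 and 4468 UMIs. After thinning every cell to 1000 UMIs, which left out 1 NP member, Gucy1a1 was found in 58.3% of saline members (27.7% to 84.8%), 82.9% of NP members (67.9% to 92.8%) and 0.215% and 0.165% of B cells. The members therefore lay far above background. Against free RNA itself (barcodes under 50 UMIs), lymphoid markers stood in members at 1.63% (saline) and 0.662% (NP) of their free RNA level, and epithelial markers at 12.2% and 4.33%. Endothelial markers reached 96.2% and 52.5%, and mesothelial and fibroblast markers lay above their free RNA level in both libraries, at 453% and 595% and at 4090% and 647%. Neutrophil markers stood at 1.36% and 1.17%, although the rule itself capped S100a8 and S100a9. The rule also set Cd79a, a gene of the lymphoid list, to 0, so part of the low lymphoid level follows from the selection.

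Rgs5, the gene often used for pericytes of other organs, was not a marker here. It had 11 UMIs in saline members and 0 in NP members. All 11 lay in 1 smooth muscle-like saline cell, and the pericyte-like cells described next held none, in 27708 saline and 132026 NP UMIs. Lamc3 and Itga7 also stayed under 20 UMIs, so 17 of the 20 genes listed as pericyte markers could be compared.

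The members fell into 3 kinds by 2 genes that were nearly all or none, Acta2 and Dcn (decorin, a fibroblast proteoglycan). Below a limit of 5 UMIs, the highest Acta2 count was 2, and the lowest above it was 10. For Dcn the corresponding counts were 0 and 22. Cells under both limits were called pericyte-like, those over the Acta2 limit smooth muscle-like, and those over the Dcn limit Dcn-rich. The limits were set after the values were seen.

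Pericyte-like cells made up 8 of the 12 saline members and 36 of the 42 NP members. All 5 markers (Cox4i2, Higd1b, Pdgfrb, Gucy1a1 and Postn) were detected in 6 of the 8 saline and 26 of the 36 NP cells. Cox4i2 ranged from 3 to 47 UMIs per cell around a median of 11.5 in the saline library, and from 1 to 49 around 11.0 in the NP library. The ranges of the 2 libraries overlapped almost wholly. No pericyte-like cell held an Acta2 UMI, and 1 saline and 2 NP cells lacked Gucy1a1, Postn and Notch3 altogether.

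Smooth muscle-like cells numbered 2 (saline) and 4 (NP). Acta2 (smooth muscle actin) reached 12 and 52 UMIs in the saline cells and 10 to 88 in the NP cells. Over both libraries, Tagln (transgelin) stood at 7437 CPM in them against 62.6 CPM in pericyte-like cells, a log2 ratio of 6.89 (5.99 to 7.97). For Mustn1, a muscle gene, the log2 ratio was 7.18 (5.87 to 10.8), and for Myh11 (smooth muscle myosin) 4.52 (3.64 to 5.51). Eln (elastin) had 74 UMIs in smooth muscle-like and 0 in pericyte-like cells. Markers of the pericyte list went both ways in them, with log2 ratios of -3.52 (-4.59 to -2.64) for Cox4i2, -2.87 (-3.72 to -2.14) for Postn and -2.57 (-3.17 to -2.03) for Gucy1a1, but 1.10 (0.58 to 1.60) for Notch3 and 0.77 (0.06 to 1.44) for Vtn. Notch3 was found in every smooth muscle-like cell, at 4 and 5 UMIs in the saline library and 6 to 12 in the NP library.

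Dcn-rich cells, 2 in each library, carried 1 of the 5 markers, Pdgfrb. They held 3 to 6 UMIs of Pdgfrb and 0 UMIs of Cox4i2, Higd1b, Gucy1a1, Postn and Notch3, while Ebf1 and Pdzd2 were found. Dcn stood at 20410 CPM in them and at 0 in the other members. Gsn (gelsolin, an actin-severing protein) stood at 26300 CPM against 232 CPM in pericyte-like cells. Lum (lumican), Pi16, Dpt (dermatopontin), Igfbp6 and Col3a1, genes of the adventitial fibroblasts that sheathe larger vessels, were highest in these cells summed too. The cells were not alike, since 1 saline cell alone held 102 Col3a1 UMIs. Weakest was 1 NP cell, with 22 UMIs of Dcn, 4 of Col3a1, 0 of Igfbp6 and Col1a2, and 2 each of Acta2, Myh11 and Mustn1. Against the label, these 4 cells were therefore Pdgfrb-positive cells with fibroblast genes, and they are named here only by Dcn. They held 17024 of the 51813 saline UMIs (32.9%) but 11004 of the 167546 NP UMIs (6.57%).

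**Figure D1:**
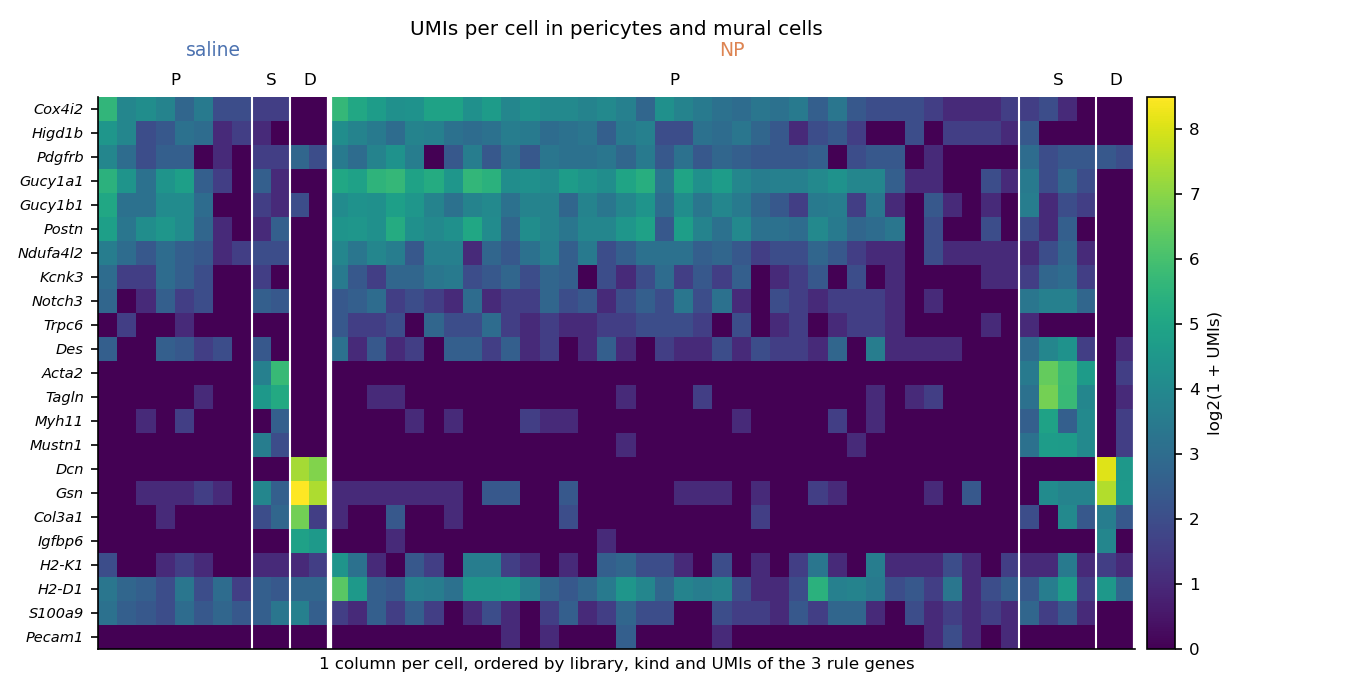
UMIs of 23 genes (rows) in each of the 54 member cells (columns), colored as log2(1 + UMIs), by library and by kind (P, pericyte-like; S, smooth muscle-like; D, Dcn-rich). Cox4i2 is found in all 8 saline and 36 NP pericyte-like cells, Gucy1a1 in 7 and 34 of them, and Postn in 7 and 32. Acta2 passes its limit of 5 UMIs in 2 saline and 4 NP cells, and Dcn passes the same limit in 2 cells of each library. Tagln is found more widely, in 3 saline and 12 NP members, and so is Gsn, in 9 and 23.

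Just inside the limit of the rule, 1 saline and 6 NP members held exactly 3 marker UMIs, and 1 saline and 2 NP members held 4. At the other end, 6 saline and 28 NP members held 10 or more. Just outside, 15 saline and 14 NP cells passed all other clauses with 2 marker UMIs. Of these, 7 saline and 6 NP cells held 5 or more UMIs of fibroblast genes, and 3 and 7 held a UMI of Gucy1a1, Postn or Notch3.

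Members were a larger share of the NP library. The share of members was 0.139% (0.0716% to 0.242%) after saline and 0.504% (0.363% to 0.681%) after NP administration, which is 3.64 times as high (1.88 to 7.59). Pericyte-like cells alone were 0.0924% (0.0399% to 0.182%) and 0.432% (0.303% to 0.598%), a ratio of 4.68 (2.14 to 11.6). Smooth muscle-like and Dcn-rich cells were too few for a ratio, with intervals from 0.298 to 23 and from 0.0753 to 14.3.

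Because a share depends on all other cells, the neutrophils in the denominator matter. Over the 3113 saline and 5190 NP cells under the S100a8 and S100a9 limit, members made up 0.385% and 0.809%, a ratio of 2.10 (1.09 to 4.38). Endothelial cells, picked with the same filters by at least 3 UMIs of Cdh5 and Cldn5 and 0 UMIs of Cox4i2, Higd1b, Pdgfrb, Csf1r and Cd79a, were 4.03% of all saline cells and 14.8% of all NP cells, a ratio of 3.67 (3.26 to 4.15). Under the same limit the endothelial ratio was 2.12 (1.88 to 2.39). Fibroblasts were picked by at least 5 UMIs of Col1a1, Col1a2, Dcn and Pdgfra, with 0 of Cox4i2 and Higd1b, under 3 of Pdgfrb and the other clauses of the members. They were 1.05% and 1.34% of all cells, a ratio of 1.28 (0.962 to 1.71), but 2.92% and 2.16% of cells under the limit, a ratio of 0.738 (0.555 to 0.984). The fibroblast ratio thus changed direction with the denominator, while the ratios of members and endothelial cells stayed above 1. Neither comparison class was pure. In the fibroblasts, the mesothelial gene Msln stood at 1433 CPM after saline and 323 after NP administration, and 10 of 10 mesothelial markers were at least 2-fold lower (median log2 ratio -2.15). Their epithelial markers summed to 848 and 3750 UMIs and their platelet and red cell markers to 18 and 3632. In the endothelial cells, epithelial markers summed to 30955 and 6906 UMIs, with Sftpc at 8342 and 140 CPM. What these do to the ratios of either class was not tested. How readily each lung gave up its vessel cells to the enzyme was not measured, so numbers in the tissue and yield from it cannot be told apart.

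The clause on Cdh5 and Cldn5 left out more marker-positive barcodes than it kept in the NP library. Barcodes that passed every other clause but held 3 or more of these endothelial UMIs numbered 12 (0.139%) after saline and 63 (0.756%) after NP administration, a ratio of 5.46 (2.92 to 11.1). Their median depths of 9060 and 8849 UMIs were above those of members in both libraries.

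**Figure D2:**
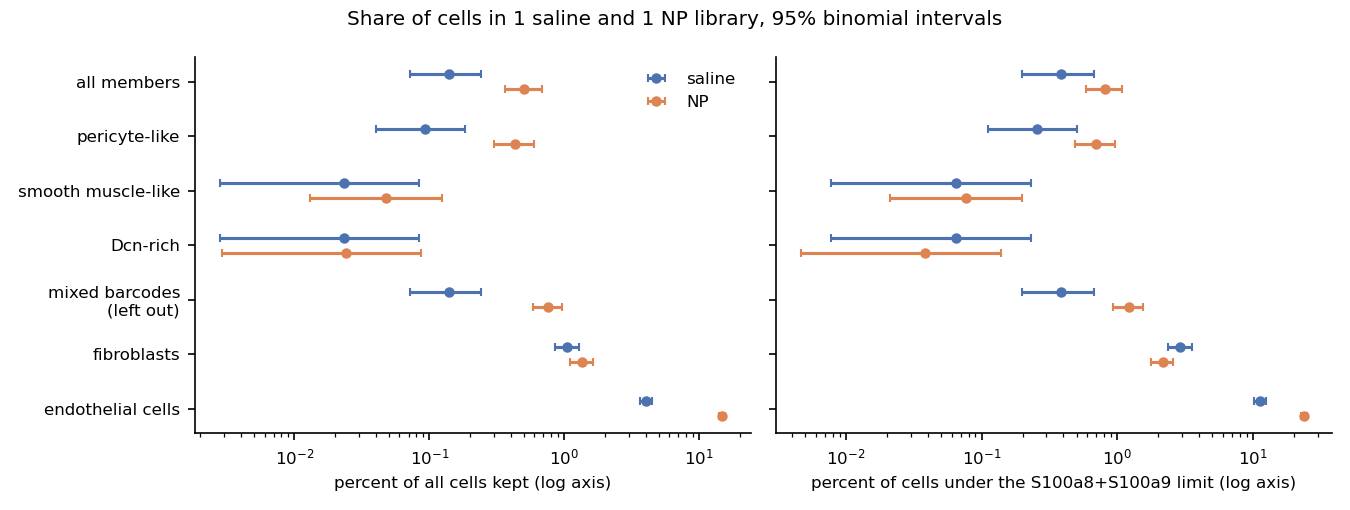
Percent of cells on a log axis, of all cells kept (left) and of cells under the S100a8 and S100a9 limit (right), with exact 95% binomial bars, for the saline (blue) and NP (orange) libraries. Pericyte-like and endothelial cells lie higher in the NP library with both denominators, while fibroblasts go from 1.05% to 1.34% on the left and from 2.92% to 2.16% on the right.

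NP and saline members were next compared across all genes, as the log2 ratio of CPM with a count under 3 set to 3. Of 2065 genes with at least 20 UMIs over both libraries, 10.5% were at least 2-fold higher and 6.15% at least 2-fold lower in NP members, around a median log2 ratio of 0.07. With pericyte-like cells alone, 1466 genes could be compared, of which 5.12% were higher and 5.59% lower by that much, around a median of 0.01. In the same comparison 4.19% and 6.35% of genes passed 2-fold in fibroblasts, and 4.1% and 2.08% in endothelial cells. These are shares of genes past a fold in 1 pair of libraries, with 12 saline members behind them.

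The genes most unlike between the libraries are given below, with what pericyte-like cells alone showed where they held enough UMIs.

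Trpc6, a cation channel of vascular smooth muscle and pericytes, had 3 UMIs in saline members and 66 in NP members, or 57.9 and 394 CPM. It was found in 2 of 12 saline and 28 of 42 NP members, with at most 7 UMIs in a cell. Thinned once at random to 1000 UMIs per cell, the share of members with it was 8.33% after saline (0.211% to 38.5%) and 34.1% after NP administration (20.1% to 50.6%), against 0% and 0.165% of B cells. In a separate draw of the pericyte-like cells it was found in 0 of 8 after saline (up to 36.9%) and in 42.9% after NP administration (26.3% to 60.6%). The intervals of the libraries overlap in both draws. The log2 ratio was 2.77 (1.16 to 5.08), and 2.19 (0.57 to 4.50) with pericyte-like cells alone. In the marker-positive barcodes that the endothelial clause left out, the log2 ratio was -0.19 (-1.47 to 1.36). Those barcodes hold endothelial transcripts as well, and the 2 values were not tested against each other.

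Pik3r1, the regulatory subunit of PI3-kinase, had 3 saline and 55 NP UMIs, at 2.5 on the log2 scale (0.88 to 4.82). Of these, 1 and 53 lay in pericyte-like cells, at 1.89 there with the saline count set to 3 (interval of the counts 0.94 to 8.81). In endothelial cells and fibroblasts its log2 ratios were -0.30 and -0.63. Hspb1, a small heat shock protein that binds actin, had 0 saline and 60 NP UMIs. With the saline count set to 3 it was 6.18-fold higher in NP members, yet 28 of the 42 NP members held none and 1 held 16. Hspb1 was higher in the rest of the NP library too, at 85.5 CPM against 22.4 CPM in all other saline cells. Endothelial cells, 4.03% of all saline and 14.8% of all NP cells, are part of that rest. Hspb1 was found in 39.5% of them after saline and 46.7% after NP administration. The part of this cell mix in the difference was not tested. Thbs4 (thrombospondin 4) had 78 NP UMIs and 0 saline UMIs, all in 1 Dcn-rich NP cell.

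The 15 highest ratios among genes with at least 50 UMIs also included Bambi (a decoy receptor of the TGF-β family; 1.82, 0.51 to 3.50), Angptl2 (an angiopoietin-like protein; 1.74, 0.43 to 3.42), Vasp (an actin regulator phosphorylated by cGMP-dependent kinase; 1.58, 0.37 to 3.08), Ptk2 (focal adhesion kinase; 1.54, 0.22 to 3.23) and Kitl (stem cell factor; 1.39, 0.33 to 2.66). Ndufs5, Prr5l, Pag1, Map4k3 and Retreg1 lay between 1.51 and 2.01. Of the 15 genes, 14 could be measured in pericyte-like cells alone. All 14 remained higher there, and 12 stayed past 2-fold, which the choice of genes largely fixed, since pericyte-like cells are most of the members.

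At the other end, many of the 15 lowest ratios belonged to genes of the Dcn-rich cells, while Apoe had most of its UMIs (59, against 23 in Dcn-rich cells) in smooth muscle-like cells. Gsn had 558 UMIs in saline and 277 in NP members, a log2 ratio of -2.70 (-2.92 to -2.49). In pericyte-like cells it had 6 and 31 UMIs, a log2 ratio of 0.12 (-1.17 to 1.67). Col3a1 (fibrillar collagen) had 114 and 48 UMIs, of which 1 and 11 lay in pericyte-like cells, and Dcn had 281 and 291 UMIs, with 0 in pericyte-like cells. Igfbp6, Dpt, Lum and Pi16 had at most 2 UMIs in the pericyte-like cells of either library. Of the genes with at least 20 UMIs in pericyte-like cells, Ahnak, S100a6, Fosb and Mbnl1 stayed past 2-fold lower and Gsn did not.

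Ahnak and S100a6 were lower in both sets of cells. Ahnak, a giant scaffold protein under the plasma membrane, had 35 UMIs in the 8 saline and 25 in the 36 NP pericyte-like cells, a log2 ratio of -2.74 (-3.54 to -1.96). S100a6 (calcyclin, a calcium-binding protein) had 20 and 12 UMIs, a log2 ratio of -2.99 (-4.16 to -1.89). In fibroblasts the ratios were -0.61 and -1.09, and in endothelial cells 0.33 and 0.31. The neutrophil genes S100a8 and S100a9 were lower in the same cells, at -1.54 (-2.13 to -0.92) and -1.27 (-1.83 to -0.69), and free RNA held 9903 CPM of S100a6 after saline and 5982 after NP administration. The part of free RNA in the S100a6 value was not tested. Mbnl1 (a splicing factor) was at -1.31 (-2.33 to -0.22) in pericyte-like cells. Fosb, an immediate early gene, was at -1.06 (-1.90 to -0.18), but all 18 saline UMIs lay in 2 of 8 cells, while 15 of 36 NP cells held it.

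**Figure D3:**
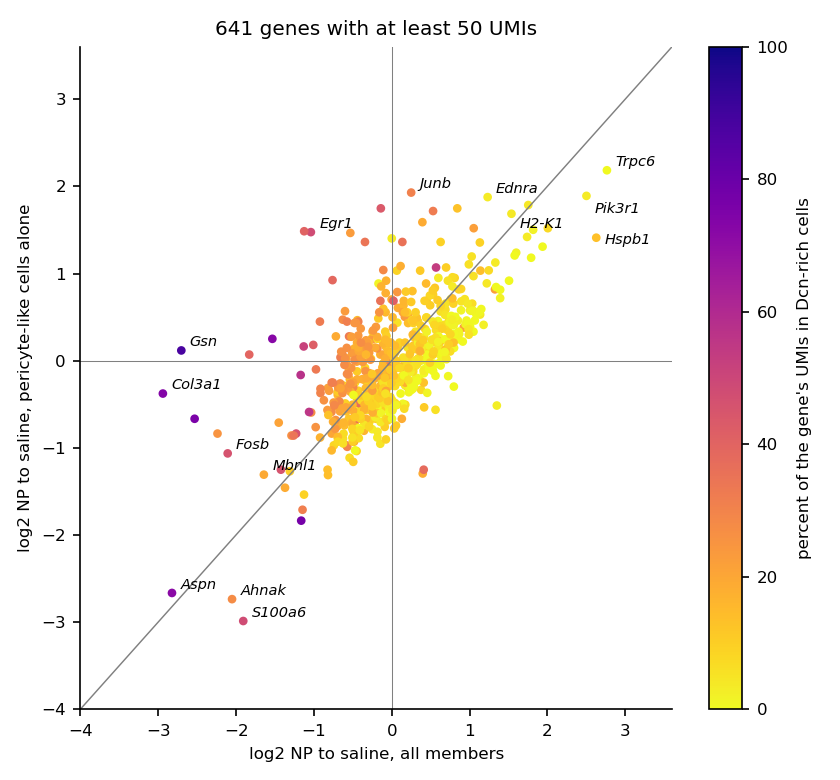
Log2 NP to saline ratio in all members (horizontal) and in pericyte-like cells alone (vertical) for 641 genes, colored by the percent of a gene's UMIs from Dcn-rich cells, with the line of equal values. Gsn lies far to the left yet near 0 vertically, Col3a1 rests on 1 and 11 UMIs in pericyte-like cells, and Trpc6, Pik3r1, Ahnak and S100a6 keep their side on both axes.

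The genes that define pericytes were nearly even between the libraries once only pericyte-like cells were counted. Of the 17 pericyte markers, 2 were at least 2-fold higher and 0 lower in all members (median log2 ratio 0.52). In pericyte-like cells 1 (Trpc6) was higher and 0 lower (median 0.02). Cox4i2 had 113 and 469 UMIs there, a log2 ratio of -0.20 (-0.50 to 0.11). Higd1b stood at -0.33 (-0.75 to 0.10), Pdgfrb at 0.24 (-0.28 to 0.80), Gucy1a1 at 0.27 (-0.01 to 0.55) and Postn at -0.01 (-0.33 to 0.32). Pdzd2, a PDZ protein abundant in these cells, was at 0.43, Ebf1 (a transcription factor of mural cells) at -0.49 and Vtn at -0.39. Since Cox4i2, Higd1b and Pdgfrb chose the cells, their evenness is partly set by the rule.

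Contractile genes include Acta2, which chose the smooth muscle-like cells. Of 17 measured, 2 (Myh11 and Smtn) were at least 2-fold higher and 0 lower in NP members, with a median of 0.34. That median turned to -0.55 without members that held 5 fibroblast UMIs, to -0.22 with cells weighted equally and to -0.012 at a limit of 5% mitochondrial UMIs. The first of these settings also removed a smooth muscle-like NP cell with 54 Acta2 UMIs. In pericyte-like cells 1 of 10 was higher (Myl9) and 0 lower (median 0.08). Acta2 had 64 UMIs in saline and 178 in NP members (-0.22, -0.64 to 0.22), and Tagln 58 and 188 (0.00, -0.43 to 0.45). Myh11 had 8 and 66 UMIs (1.35, 0.29 to 2.62), of which 5 and 29 lay in 1 cell each, and pericyte-like cells held too few to compare (3 and 10). Myl9, the regulatory light chain of myosin, was at 1.40 (0.10 to 3.08) there from 5 and 63 UMIs. Des (desmin), an intermediate filament of both mural kinds, had 19 and 80 UMIs in pericyte-like cells, at -0.18 (-0.91 to 0.63).

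Genes of vascular tone lay above 0 in all members, but some lay below 0 in pericyte-like cells. Nitric oxide relaxes mural cells through soluble guanylate cyclase, which makes cGMP for the kinase Prkg1, and Pde5a breaks cGMP down. Of 8 genes of this route, 2 were at least 2-fold higher and 0 lower (median 0.78). In pericyte-like cells the same 2, Prkg1 and Vasp, were past 2-fold, at 1.02 (-0.67 to 3.38) and 1.21 (-0.10 to 2.89), and the median was 0.29. There 5 of the 8 lay above 0 and 3 below, and 0 had an interval wholly above 0. Pde5a had 62 and 366 UMIs there, at 0.31 (-0.08 to 0.72), and Ppp1r14a, an inhibitor of myosin phosphatase, was at -0.10.

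Among receptors and channels for vasoactive signals, 3 of 7 were at least 2-fold higher in NP members and 0 lower (median 0.99). In pericyte-like cells 4 of 6 lay above 0 and 2 below, and 3 of the 6 were at least 2-fold higher (median 0.89). Besides Trpc6, these were Ednra and Calcrl. Ednra, the endothelin A receptor, had 4 saline and 70 NP UMIs in pericyte-like cells, at 1.88 (0.46 to 3.79), and was found in 3 of 8 and 30 of 36 cells. Thinned to 1000 UMIs, the shares were 25% (3.19% to 65.1%) and 48.6% (31.4% to 66.0%), which overlap. No thinned B cell of either library held Ednra, and before thinning 1 of 605 NP B cells did. Its log2 ratio was 1.22 in fibroblasts and 1.31 in endothelial cells, where it had 3 and 27 UMIs. Calcrl, the receptor for adrenomedullin, had 1 and 37 UMIs, at 1.37 with the saline count set to 3 (interval of the counts 0.39 to 8.30). Calcrl is also an endothelial gene. Free RNA held 56.5 CPM of it in the saline library and 198 CPM in the NP library, and its part in that value was not tested. Agtr1a, the angiotensin receptor, was at 0.40 (-0.76 to 1.80).

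Few signaling genes were abundant enough to compare. In the PDGF route, Pdgfrb was at 0.52 (0.06 to 1.00) in all members, and Pdgfa, a ligand, at 0.46 (-0.34 to 1.34). In pericyte-like cells they were at 0.24 and -0.37 (-1.19 to 0.53). Pdgfb itself, the ligand of endothelium, had 0 UMIs in members of either library. In the Notch route 1 of 6 genes was at least 2-fold higher (Notch1, 3 and 33 UMIs, 1.77) and 1 lower (Rbpj, 13 and 10 UMIs, -2.07). In pericyte-like cells, none of the 4 genes measured passed 2-fold. Notch3 was there at 0.25 (-0.51 to 1.08) and its target Hes1 at 0.58 (-0.44 to 1.77).

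Of 11 TGF-β route genes, 1 was at least 2-fold higher (Eng, endoglin, 1.05, 0.20 to 2.02) and 2 lower (Tgfb2 and Ltbp4). In pericyte-like cells 0 of 8 were higher, and Tgfb2 and Ccn2, a matricellular target of this route, were lower. Ccn2 was at -1.30 (-2.18 to -0.36) from 17 and 33 UMIs, against 0.40 in all members. Among secreted angiogenic factors 0 of 5 passed 2-fold in all members, while in pericyte-like cells 0 of 4 were higher and 1 lower (Pgf, placental growth factor, -1.25). Angpt1, the pericyte ligand of the endothelial receptor Tie2, was at 0.53 (-0.39 to 1.57) in all members.

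Of 13 basement membrane genes, 0 were at least 2-fold higher and 2 lower in all members (median 0.01), with 7 above 0 and 6 below. In pericyte-like cells 0 of 11 were higher and 1 lower (median -0.45), with 3 above 0 and 8 below. Col4a1, type IV collagen, had 84 and 292 UMIs in pericyte-like cells, at -0.45 (-0.81 to -0.09), and 0.01 (-0.33 to 0.35) in all members. Col4a2, which is transcribed beside it, was at -0.31 (-0.73 to 0.12). In endothelial cells Col4a1 was at -0.36 and in fibroblasts at 0.20. Nid1 (nidogen) was at -0.86 (-1.72 to 0.07), and Sparcl1 at 0.30 (-0.08 to 0.70).

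Fibrillar matrix genes were lower in all members, with 12 of 25 at least 2-fold lower and 1 higher (median -0.76). Among pericyte-like cells 9 could be measured, with 1 lower and 0 higher (median -0.25). Col1a2 turned from -1.01 to 0.18 (-0.81 to 1.32), and Fn1 (fibronectin), at 22 and 5 UMIs in all members, had 0 and 2 UMIs in pericyte-like cells. Complement, lipid and metal-binding genes went the same way, with 7 of 10 lower in all members (median -1.24) and 1 of 4 higher and 0 lower in pericyte-like cells (median 0.46). Apoe (apolipoprotein E), at -2.24 in all members, had 1 and 8 UMIs in pericyte-like cells.

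**Figure D4:**
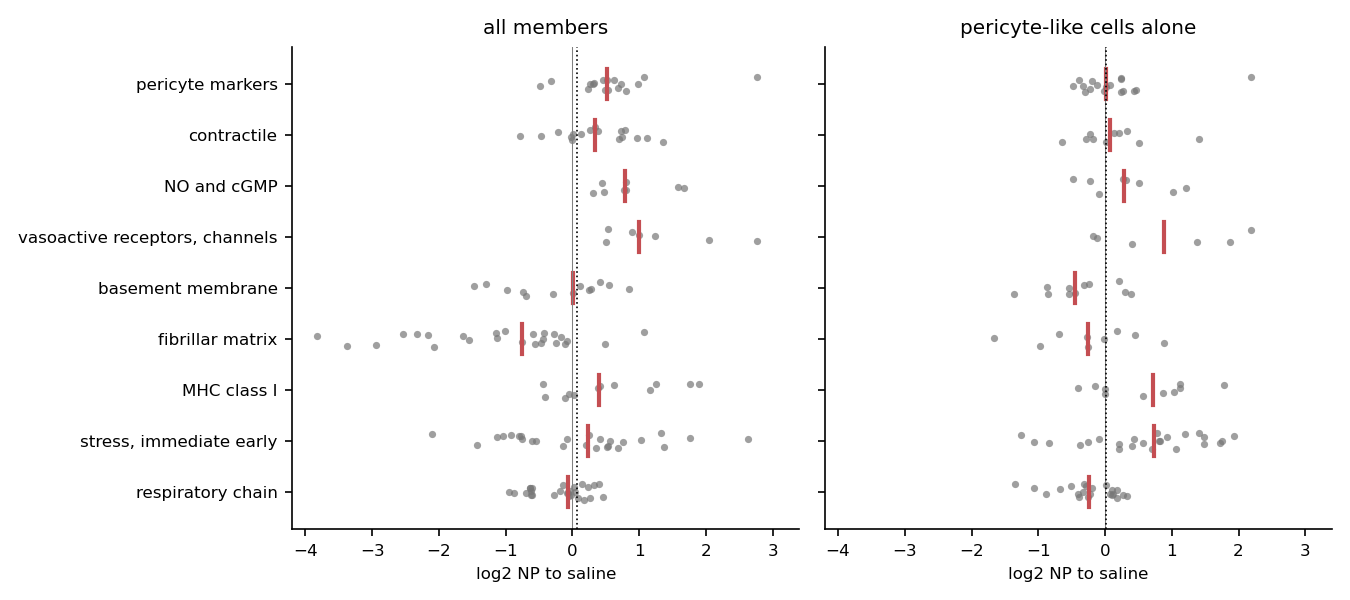
Log2 NP to saline ratio of each gene (grey points) in 9 gene lists, with the list median (red) and the median of all genes compared (dotted line), in all members (left) and in pericyte-like cells alone (right). Fibrillar matrix has a median of -0.76 on the left and -0.25 on the right, and pericyte markers one of 0.52 and 0.02.

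MHC class I heavy chains were higher in NP members. The class I heavy chains H2-K1 and H2-D1 pair with B2m (beta-2-microglobulin) to show peptides to CD8 T cells, and interferons induce them. Of 12 class I genes measured, 4 were at least 2-fold higher in NP members and 0 lower (median 0.39). In pericyte-like cells it was 4 of 10 (median 0.71). All 4 were heavy chains, H2-K1, H2-D1, H2-Q4 and H2-T23, whose sequences are alike enough that reads may be assigned among them. They did not rest on equal counts. In all members H2-Q4 held 2 saline UMIs, under the floor used for ratios, and 36 NP UMIs. H2-T23 held 5 and 36. Intervals of 4 genes of the list lay wholly above 0 in all members. B2m was among these, so not every heavy chain was. Of the rest of the list none passed 2-fold. Among genes that load or process peptides, Tapbp, Canx, Psmb10 and Pdia3 lay between -0.45 and -0.05, and Calr, Psmb8 and Psme1 between 0.03 and 0.41.

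H2-K1 had 12 UMIs in saline and 131 in NP members, or 232 and 782 CPM, a log2 ratio of 1.76 (0.90 to 2.74). In pericyte-like cells it had 7 and 115 UMIs, at 1.79 (0.70 to 3.13). H2-D1 had 65 and 499 UMIs, at 1.25 (0.87 to 1.64), and was found in every member. Single cells held 2 to 9 H2-D1 UMIs in the saline library (median 5.5) and 1 to 78 in the NP library (median 9.5), so the groups of cells overlapped and the NP cells reached further up. Without the richest cell of each library the log2 ratios were 1.79 for H2-K1 and 1.14 for H2-D1. H2-D1 fell short of 2-fold, at 0.90, without members that held 5 fibroblast UMIs, at 0.95 with cells weighted equally and at 0.58 with Cox4i2 and Higd1b alone as markers. The first of these settings left 9 saline and 34 NP members. It removed members that were not Dcn-rich too, among them the pericyte-like NP cell with 78 H2-D1 UMIs. B2m was at 0.63 (0.10 to 1.20).

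The same genes were higher in NP endothelial cells, at 0.83 for H2-K1, 0.74 for H2-D1 and 0.86 for B2m, but not in fibroblasts, at -0.20, -0.30 and -0.10, with the mesothelial, epithelial and red cell markers in these classes differing as given above. All other cells of the libraries differed as well. H2-K1 went from 413 to 1247 CPM there, H2-D1 from 2871 to 4714 CPM and B2m from 1055 to 2100 CPM. Their mix of cell types also differed between the libraries, and its part in these values was not tested. The higher class I levels were thus not particular to members. Free RNA also held more of them in the NP library, at 362 and 1021 CPM for H2-K1 and 2476 and 4485 CPM for H2-D1. Its part in the class I ratios was not tested. After thinning, H2-K1 was found in 25% of saline members (5.49% to 57.2%) and 53.7% of NP members (37.4% to 69.3%), intervals that overlap. H2-D1 was found in 50% (21.1% to 78.9%) and 92.7% (80.1% to 98.5%) of members. These intervals come from 1 random draw over the cells of 1 library per group, so they measure no difference between groups. In the separate draw of pericyte-like cells, H2-D1 was found in 75% (34.9% to 96.8%) and 85.7% (69.7% to 95.2%), which overlap.

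The 250 bases before the gene's start are shown for H2-K1, H2-D1 and H2-Q4, the members of the list that held a match to either of 2 well-known class I elements. H2-T23, the other heavy chain past 2-fold, held neither. The sequences come from RefSeq on GRCm38.p6. Capitals mark matches, on either strand, to the interferon response element of class I genes (AGTTTC, any 2 bases, then TTCT) and to the NF-κB site of the class I enhancer (GGGGA, any 1 base, then TCCCC), which do not overlap here. The stretches are chr17:34000348-34000597 (minus strand) for H2-K1, chr17:35262844-35263093 (plus strand) for H2-D1 and chr17:35379367-35379616 (plus strand) for H2-Q4, each written 5′ to 3′ and ending just before the start that RefSeq gives. In the GENCODE annotation H2-D1 begins earlier, at 35262730, so by that start its stretch lies inside the gene.
H2-K1: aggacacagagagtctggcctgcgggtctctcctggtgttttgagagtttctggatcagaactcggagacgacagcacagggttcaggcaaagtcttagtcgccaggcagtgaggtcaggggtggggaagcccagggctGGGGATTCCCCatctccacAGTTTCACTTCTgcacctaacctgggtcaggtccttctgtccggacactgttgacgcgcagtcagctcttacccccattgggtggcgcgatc
H2-D1: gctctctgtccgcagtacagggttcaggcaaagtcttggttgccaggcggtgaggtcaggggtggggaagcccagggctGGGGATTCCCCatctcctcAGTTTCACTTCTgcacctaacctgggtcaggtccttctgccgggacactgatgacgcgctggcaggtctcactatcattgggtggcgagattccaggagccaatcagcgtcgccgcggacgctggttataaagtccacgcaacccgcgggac
H2-Q4: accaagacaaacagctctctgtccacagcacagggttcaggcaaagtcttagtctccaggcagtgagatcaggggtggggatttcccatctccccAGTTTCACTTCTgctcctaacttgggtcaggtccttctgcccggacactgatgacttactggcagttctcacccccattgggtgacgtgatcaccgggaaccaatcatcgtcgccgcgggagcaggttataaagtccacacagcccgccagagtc
Of 27025 promoters of this length, 0.17% held the first motif and 0.0407% the second. Of the 12 class I genes measured, all had a promoter in the table, 3 of them held the first motif and 2 the second. A match describes letters only.

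Beyond class I, interferon genes were few at this depth. Of 42 genes listed for the response to IFN-γ, 11 reached 20 UMIs, and 3 were at least 2-fold higher in NP members and 0 lower (median 0.63). Those 3 were again H2-K1, H2-D1 and H2-T23, the last from 5 and 36 UMIs. Psmb8, an immunoproteasome subunit, had 5 and 21 UMIs, at 0.38 (-1.07 to 2.14). Of 40 genes listed for IFN-α, 4 were measured, none past 2-fold (median -0.05), and Ifitm3 was at 0.04 (-0.29 to 0.39) from 93 and 310 UMIs. Of 34 TNF and NF-κB genes, 4 were measured, with 1 higher (Nfkbia, the NF-κB inhibitor, 1.31) and 0 lower (median 0.02). Of the chemokine and cytokine genes listed, 1 could be measured (Il6st, 0.51), and of the MHC class II genes only Cd74 (0.97), with 1 and 19 UMIs.

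**Figure D5:**
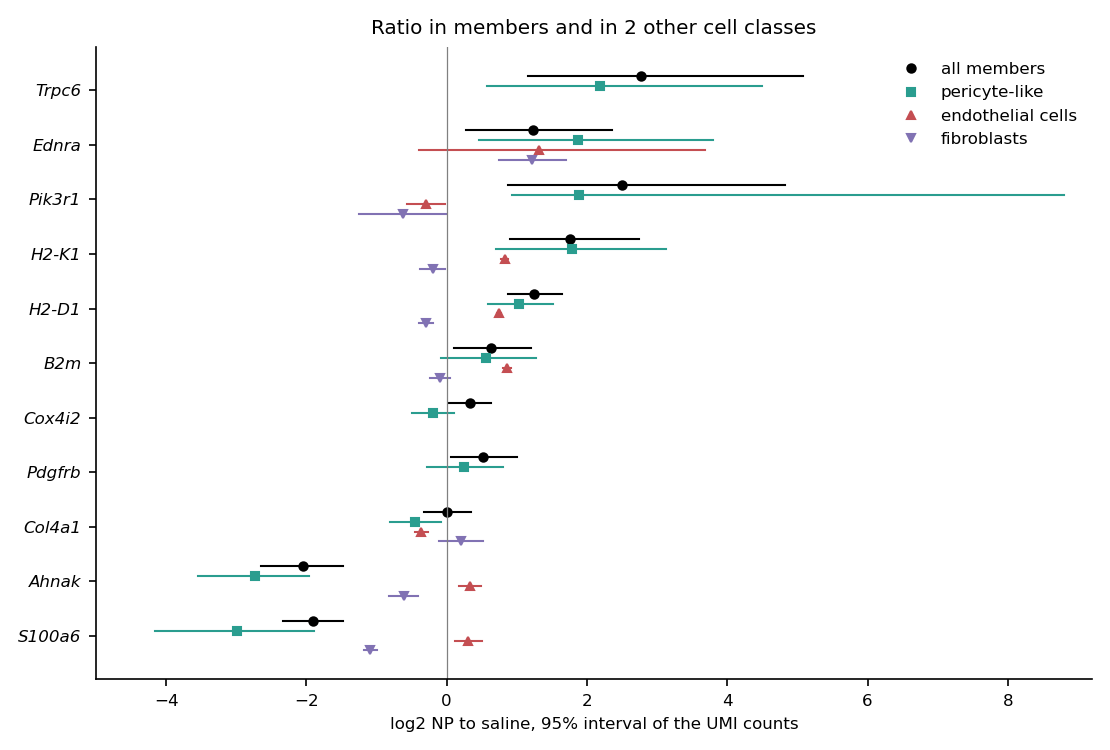
Log2 NP to saline ratio with the exact 95% interval of the UMI counts for 11 genes in all members, pericyte-like cells, endothelial cells and fibroblasts (values for Trpc6, Cox4i2 and Pdgfrb are drawn in the first 2 sets alone). H2-K1 and H2-D1 lie right of 0 in all members, pericyte-like and endothelial cells and left of it in fibroblasts, and Ahnak and S100a6 lie left of 0 in all members, which include the Dcn-rich cells, and in pericyte-like cells.

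Genes that respond to stress and to tissue digestion pointed both ways in all members, but mostly lay above 0 in pericyte-like cells. There 18 lay above 0 and 6 below, with 9 intervals wholly above 0 and 1 wholly below. Of 26 measured, 5 were at least 2-fold higher and 4 lower in all members (median 0.23), against 8 higher and 2 lower of 24 in pericyte-like cells (median 0.74). Junb had 7 and 127 UMIs in pericyte-like cells, at 1.93 (0.84 to 3.27), Btg2 6 and 94, at 1.72 (0.54 to 3.20), and Egr1 4 and 53, at 1.48 (0.03 to 3.4). Hspa1a, an inducible HSP70, had 44 and 480 UMIs there, at 1.20 (0.75 to 1.68). In all members Egr1 was at -1.04 and Fos at -0.76, with 168 of the 197 saline Fos UMIs in the 2 Dcn-rich cells. In endothelial cells Junb and Egr1 were at -0.28 and -0.44, and Hspa1a at 0.60. The saline and NP lungs were digested as separate pools, and how this bears on the class I and tone genes was not tested.

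Of 27 listed respiratory chain genes, which include the rule genes Cox4i2 and Higd1b, 0 passed 2-fold in all members (median -0.06). Ndufs5, a complex I subunit that the list does not hold, was at 2.01 from 4 and 52 UMIs. In pericyte-like cells 0 of 22 listed genes were higher and 2 lower (median -0.24). Cox4i1, the common form of the subunit that Cox4i2 replaces, was at 0.18 (-0.57 to 1.02) in pericyte-like cells, and Cox8a at -0.68 (-1.27 to -0.07). Of 8 hypoxia and glycolysis genes, 2 were higher, Epas1 and the glycolytic enzyme gene Pgam1, and 0 lower (median 0.20), and in pericyte-like cells 0 of 5 passed 2-fold. Epas1, the HIF-2α gene that vascular cells express, had 27 and 231 UMIs in pericyte-like cells, at 0.84 (0.27 to 1.48). Of the cell cycle genes listed, 2 were measured and none passed 2-fold (median 0.04).

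Markers of other cells were detected in members to differing extents. Ptprc, the pan-leukocyte gene, had 0 saline and 2 NP UMIs, and Epcam (epithelium) and Msln (mesothelium) had 0 in both. Of 20 endothelial markers, 12 were detected in saline and 18 in NP members, summing to 791 and 1474 CPM (822 and 2810 CPM in free RNA). Esam led in saline members (16 UMIs) and Calcrl in NP members (40 UMIs), while Emcn and Vwf were at 0 in both. Neutrophil markers summed to 3030 CPM in saline and 1558 CPM in NP members, led by S100a9, with 10 and 13 of 20 detected and Ly6g at 0 in both. Epithelial markers summed to 791 and 310 CPM, with 8 and 11 of 20 detected, led by Sftpc (11 and 17 UMIs). Mononuclear phagocyte markers summed to 270 and 233 CPM, with 5 and 10 of 20 detected, led by Tyrobp and Lyz2. Lymphoid markers summed to 77.2 and 29.8 CPM, with 4 and 5 of 20 detected and Cd3e and Ms4a1 at 0 in both. These lists also hold Csf1r and Cd79a, which the rule itself set to 0. Platelet and red cell markers summed to 77.2 and 197 CPM, with 2 and 5 of 10 detected, led by Hbb-bs and Hba-a1. Mesothelial markers summed to 328 and 316 CPM, nearly all from Nkain4 (17 and 50 UMIs). Fibroblast markers summed to 24360 CPM in saline and 6195 CPM in NP members, led by Gsn and Dcn, and to 1877 and 2037 CPM in pericyte-like cells, with Dcn and Lum at 0 there. Pecam1, an endothelial adhesion gene, had 0 UMIs in saline members and 14 in 8 NP members. Except for the fibroblast list, whose part is given by the pericyte-like values, the part of other cells in the ratios above was not tested.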

How the data were processed

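Lungs of 1 saline and 1 NP pool were digested with Liberase, freed of red cells and loaded on 10x Chromium. The authors' processing notes name bcl2fastq, Cell Ranger 6.0 and mm10, while the matrix header names Cell Ranger 4. The deposited matrices hold raw UMI counts for 32285 genes, with no normalization and with empty barcodes kept, so cells were selected here from 500 to 5000 detected genes and under 7.5% mitochondrial UMIs. Doublets were called with Scrublet (scanpy 1.11.5), which marked 1 of 8662 saline cells and 313 of 8333 NP cells (3.76%). Why so few saline cells were marked was not tested, so the saline call was not relied on. No member was marked, and none was removed. Counts were summed over cells and set to CPM, with a floor of 3 counts in ratios. Ratio intervals were exact conditional binomial and share intervals Clopper-Pearson (scipy 1.17.1, numpy 2.4.6, pandas 2.3.3). The ratio code was tested on simulated data. With 1 library per group no p-value was computed.

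Named genes were the rule genes, the 20 leading members' genes, the 15 highest and 15 lowest ratios where a gene had 50 UMIs or more, and listed genes with 20 or more. The members and lists were chosen with earlier results of these data known. The 3 kinds, and the comparison in pericyte-like cells alone, were chosen after the values were seen. Alternatives changed the filters, marker limits, weighting and scaling. Of the per-sample columns in the files, 0 were left unmapped.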

Additional observations from a re-analysis of the deposited data

Results flagged for a closer look

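Barcodes that carried the mural markers together with at least 3 UMIs of Cdh5 and Cldn5 are outside the comparisons above and made up 0.756% of NP cells, against 0.139% of saline cells. 4 genes that were lower in NP members were at least 2-fold higher in another class. In endothelial cells the log2 NP to saline ratio was 1.03 for Dpt, 1.01 for Pi16 and 3.53 for Dcn, and in fibroblasts it was 1.93 for Aspn. Endothelial Dcn rested on 2 saline UMIs, set to 3, and 126 NP UMIs in 9 of 1233 cells, with 78 in 1 cell. Without the richest cell of each library, an alternative chosen after seeing the data, the ratios were 2.14 for Dcn, 1.10 for Dpt, 1.05 for Pi16 and 2.03 for Aspn. The differences between these ratios and those of the members were not tested, and a single pair of libraries gives each.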

How the results depend on the processing

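The higher share of members in the NP library kept its direction under every alternative run (log2 ratio 1.07 to 2.23). The median of contractile genes was -0.012 at 5% mitochondrial UMIs, 0.77 with Cox4i2 and Higd1b alone as markers, -0.55 without members holding 5 fibroblast UMIs, -0.22 with cells weighted equally and 0.80 without the top cell of each gene. The TNF median was -0.79 with 5 marker UMIs, and the basement membrane median 1.21 with Cox4i2 and Higd1b alone. Genes at least 2-fold higher numbered 130 with 5 marker UMIs, 637 with Cox4i2 and Higd1b alone, 93 without fibroblast-marker members, 41 at 50 UMIs and 75 in pericyte-like cells. Lower genes numbered 78, 33 and 82 in the last 3 of these. The 5 settings compared 1742, 2266, 1342, 650 and 1466 genes, in that order. The main comparison had 217 higher and 127 lower of 2065, so the counts are not on 1 scale. With Cox4i2 and Higd1b alone the ratio reversed for Col1a2 (1.32), Col3a1 (0.10), Gsn (0.73), Lamb2 (0.053), Ltbp4 (2.30), Mfap4 (0.42) and Nid1 (0.76), and the median of all genes moved to 0.42. There 7 saline and 5 NP cells entered. Of the saline ones, 2 held 4541 and 3415 Sftpc UMIs, and 1 other held 4785 UMIs of Scgb1a1, also an epithelial gene. Leaving out members with 5 fibroblast UMIs removed pericyte-like and smooth muscle-like members as well as Dcn-rich ones. There the ratio reversed for Atf3 (0.20), Egr1 (1.01), Eln (-0.70) and Ltbp4 (0.20). In pericyte-like cells it reversed for Col1a2 (0.18), Egr1 (1.48), Gsn (0.12), Gstm1 (0.069), Ltbp4 (0.25) and Myh11 (-0.52), although Gstm1, Ltbp4 and Myh11 held 15, 19 and 13 UMIs there, under the limit of 20. Beyond cells entering or leaving, the cause was not tested. No paired analysis was possible because there is 1 library per group. With 12 saline members, genes under 20 UMIs were left out of counts and medians.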
